A study of Mus musculus with 2 samples.

Results

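The genes described here are 7 major urinary protein genes, Mup3, Mup4, Mup5, Mup7, Mup18, Mup20 and Mup21, taken by symbol from a table of 36771 gene rows that also holds other Mup copies, for 43 Mup rows in all. They were chosen because their levels were already known to differ in opposed directions between the 2 libraries of the study, so their own levels and ratios are given as a description with no test. The table covers liver RNA from BALB/c animals aged 5 months, in 1 library labelled WT and 1 labelled SRSF2-KO (genotype SRSF2-/-), the latter from mice with a deletion of Srsf2 specific to liver, as the series' design states. They are called the WT-labelled and the KO-labelled library below. Srsf2 codes for a splicing factor of the SR protein family. Its own level, 45.3 FPKM in the KO-labelled and 38.2 FPKM in the WT-labelled library, was not lower under the KO label. A gene-level value from whole liver cannot tell why, so every direction given here is one between 2 labelled libraries. The comparison addresses how liver RNA differed between these genotypes. The labels do not give the Cre driver, the sex or the number of mice behind a library. With 1 library per genotype there is no replicate check on any difference, and differences between mice and between genotypes cannot be told apart.

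Major urinary proteins are small lipocalins, barrel-shaped carriers that hepatocytes secrete into blood and that the kidney passes into urine, where they bind and slowly release volatile pheromones. Their genes form a tandem cluster on mouse chromosome 4, and many copies are almost the same in sequence. Liver transcription of the family is known to be higher in males, where pulsed growth hormone acts through the transcription factor STAT5B, with further input from glucocorticoid and thyroid hormone. Mup20 codes for darcin, the male pheromone that attracts females. Mup3, Mup7 and Mup18 are liver copies, whereas Mup4 and Mup5 are best known from lacrimal and salivary glands.

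How far a sequencing read can tell these copies apart depends on their sequence, so a stretch of 60 coding bases is shown for each, from GENCODE M21 transcripts of the C57BL/6J reference. It is the ungapped stretch with the most positions that vary among the 7 genes, 26 of the 60. It starts between coding base 206 (Mup4) and coding base 224 (Mup3), counted from the A of the start codon, and capitals mark bases that differ from Mup7.
Mup7: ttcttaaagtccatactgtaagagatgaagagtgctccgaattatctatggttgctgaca
Mup18: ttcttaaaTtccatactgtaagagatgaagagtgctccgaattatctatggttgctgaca
Mup20: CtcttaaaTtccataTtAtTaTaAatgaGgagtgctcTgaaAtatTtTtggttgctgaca
Mup5: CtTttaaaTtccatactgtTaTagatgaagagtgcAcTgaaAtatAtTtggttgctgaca
Mup4: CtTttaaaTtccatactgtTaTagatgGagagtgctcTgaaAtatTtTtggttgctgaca
Mup21: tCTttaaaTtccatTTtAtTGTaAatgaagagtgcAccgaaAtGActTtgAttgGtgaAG
Mup3: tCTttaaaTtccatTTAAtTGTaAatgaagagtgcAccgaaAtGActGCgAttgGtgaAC
Mup18 differed from Mup7 at 1 base of this stretch, Mup4 and Mup5 at 10 each, Mup20 at 12, Mup21 at 19 and Mup3 at 21.

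Over the whole coding sequence the members fell into near-identical and diverged copies. Mup7 and Mup18 were 98.5% identical to each other, and 16 annotated Mup genes, both included, were at least 95% identical to Mup18. Of these 16, 15 had a row in the table. The other 6 genes were Mup3, Mup4, Mup5, Mup6, Mup20 and Mup21, at 83.6% to 91.4% identity to Mup18. Among them Mup3 and Mup21 were closest, at 94.8%, and Mup4 and Mup5 were 92.1% identical.

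The share of 50-base words of a transcript that occur in no other annotated gene measures how much of a copy reads of that length could assign to it. This share was 84.4% for Mup3, 87.6% for Mup4, 82.9% for Mup5 and 80.7% for Mup21, so most of these 4 transcripts is their own. It was 9.76% for Mup7 and 10.4% for Mup18, and lay between 0% and 21.9% over the 16 near-identical copies. Values of single near-identical copies therefore depend on how shared reads were divided, which is not given in the sources used here. Mup20 stood between, at 49.5%, and 48.0% of its words also occur in the pseudogene Mup-ps19, of whose own words 89.8% occur in Mup20. The read length is not given in the sources used here either, and BALB/c mice can differ from the reference strain in this cluster.

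Promoter sequence was available for 5 members in the RefSeq table of 300-base windows, from 250 bases before to 50 after each start (build GRCm38.p6), and not for Mup5 and Mup20. The stretch between 2 short words that all 5 windows hold, picked by eye, is shown because it compares copies whose levels differed by different amounts. It covers chr4:60070440-60070588 for Mup7, chr4:61674184-61674332 for Mup18, chr4:59960734-59960881 for Mup4, chr4:62087363-62087510 for Mup3 and chr4:62150881-62151028 for Mup21, all on the minus strand, written 5′ to 3′ with capitals for bases that differ from Mup7.
Mup7: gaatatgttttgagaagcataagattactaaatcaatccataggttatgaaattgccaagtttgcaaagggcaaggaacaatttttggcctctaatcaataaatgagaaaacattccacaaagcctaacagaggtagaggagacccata
Mup18: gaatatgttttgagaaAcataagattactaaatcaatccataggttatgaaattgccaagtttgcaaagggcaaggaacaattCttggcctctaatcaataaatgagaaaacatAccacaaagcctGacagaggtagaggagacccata
Mup4: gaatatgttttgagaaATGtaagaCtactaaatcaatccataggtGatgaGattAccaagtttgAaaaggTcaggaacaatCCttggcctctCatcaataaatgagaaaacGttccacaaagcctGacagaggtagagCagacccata
Mup3: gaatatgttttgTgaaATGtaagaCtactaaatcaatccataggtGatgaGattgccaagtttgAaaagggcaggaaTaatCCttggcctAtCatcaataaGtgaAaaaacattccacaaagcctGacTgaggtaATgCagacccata
Mup21: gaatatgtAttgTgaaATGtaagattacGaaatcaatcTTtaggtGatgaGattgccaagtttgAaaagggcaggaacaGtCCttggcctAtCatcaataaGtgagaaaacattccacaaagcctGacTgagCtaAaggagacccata
Against Mup7, 4 aligned positions differed in Mup18, 16 in Mup4, 21 in Mup3 and 22 in Mup21. The letters ATCAATA, the core bound by the liver factor Onecut1 (HNF6), occurred once in each of the 5 windows and in 2.05% of all 32851 promoter windows, both strands searched; this motif was picked after the sequences had been read. The letters TATATAA, a form of the promoter element bound by TBP, occurred once in each window except that of Mup7, which ends sooner after the shared stretch, and in 3.24% of all windows. TTCNNNGAA, the consensus bound by STAT5, was in none of the 5 and in 8.3% of all windows. The TBP and Onecut1 matches do not overlap, and each describes letters in the window, not binding. The 5 windows belong to related copies and are not independent. Their counts beside the shares over all windows therefore cannot show that a motif is enriched or lacking.

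Darcin RNA was the one member at a higher level in the KO-labelled library. Mup20 stood at 9181 FPKM there and at 2815 FPKM in the WT-labelled library, where FPKM are fragments normalised to transcript length and to all mapped fragments. It was 3.26-fold higher, and estimated reads bound this ratio between 3.23 and 3.30 (95% exact Clopper-Pearson interval). Such intervals cover counting error only and say nothing of the spread between mice. Mup20 ranked 29 among all symbols in the WT-labelled library and 9 in the KO-labelled library.

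Mup-ps19, the pseudogene that shares most of its words with Mup20, was also higher, at 1407 against 140 FPKM. Here and below, the first value of such a pair is from the KO-labelled library. The sum of Mup20 and Mup-ps19, which depends less on how reads were split between them, was 10587 against 2955 FPKM, or 3.58-fold higher in the KO-labelled library. Both rows lay on the same side, but most words of Mup-ps19 occur in Mup20, so the rows are not independent. Mup20 made up most of the sum in both libraries, so the ratio of the sum largely follows Mup20.

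**Figure D1:**
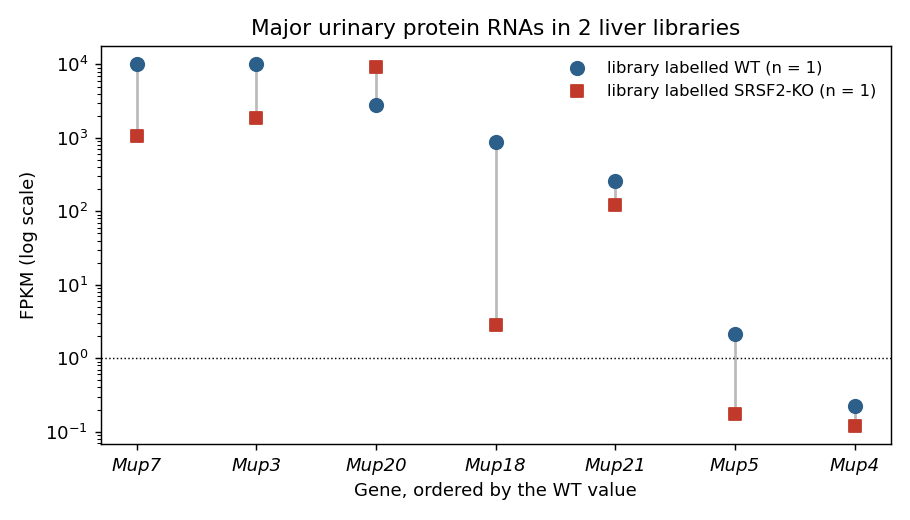
FPKM of the 7 members on a log axis, with 1 point for the WT-labelled library (circles) and 1 for the KO-labelled library (squares), and a dotted line at 1 FPKM. Mup20 is the one gene whose square lies above its circle, at 9181 against 2815 FPKM.

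Mup3, a diverged copy that reads can largely tell apart, was the second most abundant member in the WT-labelled library. It stood at 1867 FPKM in the KO-labelled library and 10076 FPKM in the WT-labelled library, 5.40-fold lower in the former with a counting interval of 5.34 to 5.46. Mup21, its closest relative in sequence, was at 124 against 256 FPKM, a 2.07-fold difference on the same side with a counting interval of 1.94 to 2.20. On the scale used below, log2((KO + 1)/(WT + 1)) of FPKM, the values were -2.43 for Mup3 and -1.04 for Mup21. The value of Mup21 was -0.70 when both libraries were rescaled to the same total.

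Among the near-identical copies, Mup7 was at 1055 FPKM in the KO-labelled library and 10122 FPKM in the WT-labelled library, the highest level of any member there. Mup18 was at 2.87 against 875 FPKM, with log2 ratios of -3.26 for Mup7 and -7.82 for Mup18. Ratios of copies this alike, 9.60-fold and 305-fold, rest on the division of shared reads, and the cause of the gap between them was not tested. The other 13 near-identical rows summed to 3545 against 10893 FPKM, 3.07-fold lower in the KO-labelled library. All 13 had log2 ratios below 0, from -4.26 for Mup9 to -0.52 for Mup15, and 10 were at least 2-fold lower. Over all 15 near-identical rows, Mup7 and Mup18 included, the sum was 4603 against 21889 FPKM, 4.76-fold lower, which depends less on the division of reads among copies than any single row.

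Mup14, Mup10, Mup19 and Mup17 were the most abundant of these other copies in the WT-labelled library. Mup14 was at 1077 against 3505 FPKM and Mup10 at 684 against 1502 FPKM. Mup19 was at 884 against 1378 FPKM and Mup17 at 342 against 1189 FPKM. The rows with larger ratios were Mup9 (56.2 against 1098 FPKM), Mup1 (52.5 against 839 FPKM), Mup12 (30.5 against 344 FPKM) and Mup16 (18.9 against 167 FPKM). Mup11 was at 236 against 611 FPKM and Mup15 at 145 against 208 FPKM, and Mup2, Mup8 and Mup13 were at or below 28.8 FPKM in both libraries.

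**Figure D2:**
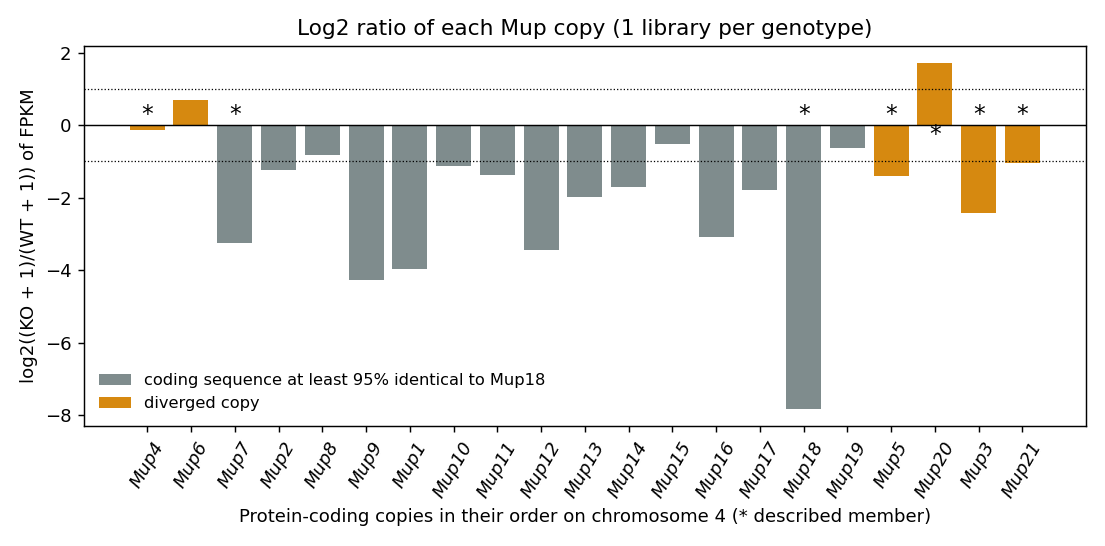
Log2((KO + 1)/(WT + 1)) of FPKM for the protein-coding Mup rows in their order on chromosome 4, with dotted lines at 2-fold, grey bars for near-identical copies, orange bars for diverged copies and asterisks for the members. Mup20, at 1.71, lies between Mup5 and Mup3, which are both below 0.

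Mup4 and Mup5, the copies known from secretory glands, were barely detected in liver. Mup5 stood at 0.175 FPKM in the KO-labelled library and 2.10 FPKM in the WT-labelled library, or an estimated 3.3 and 31.6 reads. The ratio of the KO-labelled library to the other was 0.0831 with a counting interval of 0.0146 to 0.238. Mup4 stood at 0.119 against 0.223 FPKM, an estimated 2.2 and 3.3 reads, and a difference was not detectable at this depth, with a ratio of 0.532 and a counting interval of 0.0441 to 4.61. All 7 lacrimal and salivary gland markers found in the table were listed at 0 in both libraries.

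Mup6, the remaining diverged copy and no member, lies next to Mup4 and has 95.7% of its 50-base words to itself. It was at 1.30 FPKM in the KO-labelled library and 0.431 FPKM in the WT-labelled library, an estimated 24.6 and 6.5 reads, with a ratio of 3.01 and a counting interval of 1.32 to 9.84. It was the only protein-coding Mup row besides Mup20 with a log2 ratio above 0, at 0.68.

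**Figure D3:**
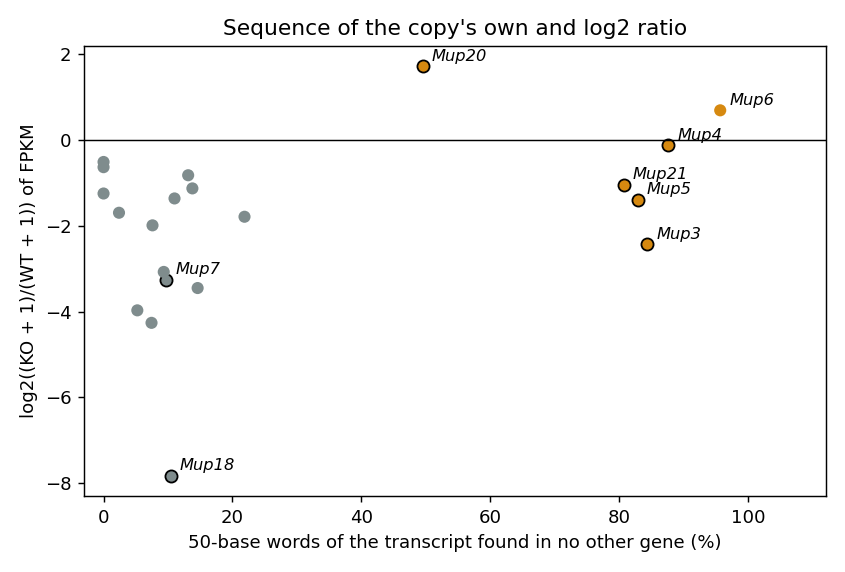
Share of the 50-base words of each protein-coding copy that occur in no other annotated gene (horizontal axis, percent) against its log2 ratio (vertical axis), with black outlines for the members, grey for near-identical and orange for diverged copies. The grey copies lie between 0% and 21.9% and spread from -7.82 to -0.52, and Mup3, Mup5 and Mup21 lie at 80.7% to 84.4% and below a ratio of 0.

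Of the 7 members, 6 had at least 1 FPKM in at least 1 library, Mup4 being the exception. Among those 6, 1 passed 2-fold upward and 5 downward in the KO-labelled library. Across the deposited data, 11428 rows reached that level, of which 5.49% passed 2-fold upward and 3.22% downward, and the median log2 ratio was -0.04. Because the members were chosen from this contrast, nothing is read from their counts. Of the 14 protein-coding Mup rows that are no members, 10 passed 2-fold downward and 0 upward on the log2 scale used here. Mup6, 1 of these rows, had an FPKM ratio of 3.01 but a log2 ratio of 0.68 on that scale. All of those rows but Mup6 are near-identical copies, whose reads can overlap those of Mup7 and Mup18. The rows come from the same 2 libraries and are no independent evidence.

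The family as a whole was lower in the KO-labelled library and made up differently. All 43 Mup rows summed to 17199 FPKM there and 35200.5 FPKM in the WT-labelled library, 2.05-fold lower. They made up 3.29% and 5.28% of all FPKM, respectively. Mup20 was 7.996% of the family sum in the WT-labelled library and 53.4% in the KO-labelled library. In the same order, Mup3 was 28.6% and 10.9% of it, and Mup7 28.8% and 6.13%. Without Mup20 and Mup-ps19, the other 41 rows summed to 6612 against 32245 FPKM, a 4.88-fold difference. Expression per cell and the share of hepatocytes cannot be told apart in these whole-liver libraries.

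**Figure D4:**
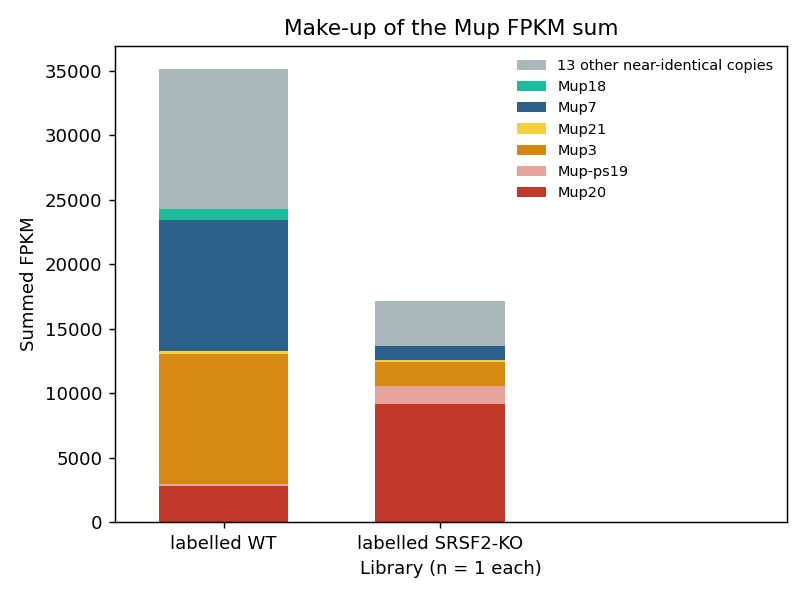
Summed FPKM of the Mup rows in each library as stacked bars, split into Mup20, Mup-ps19, Mup3, Mup21, Mup7, Mup18 and the 13 other near-identical copies; Mup4, Mup5, Mup6 and the remaining pseudogenes are too low to be drawn. Mup20 takes up 7.996% of the family in the WT-labelled library and 53.4% in the KO-labelled library.

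Among the 22 Mup pseudogene rows, 8 were listed at 0 in both libraries and 6 had at least 1 FPKM in at least 1 library. Besides Mup-ps19 these 6 were Mup-ps13 (3.95 against 4.17 FPKM), Mup-ps14 (1.26 against 1.88 FPKM), Mup-ps16 (4.63 against 3.52 FPKM), Mup-ps17 (3.10 against 5.18 FPKM) and Mup-ps18 (1.97 against 4.22 FPKM). None of these 5 differed 2-fold on the log2 scale used here. A value listed at 0 may be a failed estimate in this table, since Alb, the albumin gene that hepatocytes express at very high levels, is listed at 0 in both libraries.

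Genes flanking the cluster did not reach 2-fold on the log2 scale used here. Their differences overlapped the smaller ones inside the cluster, such as Mup8 (-0.83), Mup19 (-0.64) and Mup15 (-0.52). Of the 5 nearest protein-coding genes in the table on each side, 7 of 10 had at least 1 FPKM in at least 1 library. On that log2 scale, 0 of those 7 differed 2-fold. Of all measured rows, 5.49% passed 2-fold upward and 3.22% downward, so 0 among 7 says little. Log2 ratios of the 7 flanking genes ran from -0.86 for Susd1 to -0.01 for Fkbp15. Susd1, at 2.47 against 5.30 FPKM, was more than 2-fold apart before 1 was added to each value. Hsdl2, which codes for a peroxisomal dehydrogenase-like protein, was at 20.4 against 30.3 FPKM, and Slc31a1, the copper importer, at 40.8 against 64.9 FPKM.

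With only 2 libraries, likeness between genes reduces to 1 log2 ratio each and says little. Among 817 symbols outside the family with at least 100 FPKM in the higher library, those nearest to Mup20 in log2 ratio were Snora20 (1.64), Selenbp2 (1.60) and Fdps (1.53), and 14 had a ratio at least as high. Nearest to Mup18 were Snord13 (215 FPKM in the WT-labelled library and listed at 0 in the other), Cyp4a14 (-4.27) and Cyp2c37 (-3.25), and 0 had a ratio as low.

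Y-linked RNA was present in both libraries, which bears on a family known to be higher in males. Genes Ddx3y (9.21 against 10.6 FPKM), Eif2s3y (19.2 against 22.4 FPKM), Kdm5d (2.50 against 2.52 FPKM) and Uty (3.78 against 4.34 FPKM) were measured in both, and Xist, the RNA that silences one X chromosome in females, was at 0.00500 against 0.00630 FPKM. Other male-biased liver genes went both ways. Of 15 measured, 3 passed 2-fold upward and 3 downward in the KO-labelled library, against 5.49% and 3.22% of all measured rows. Selenbp2 (225 against 73.5 FPKM), Ugt2b38 (4.39 against 1.21 FPKM) and the complement gene C6 (169 against 77.6 FPKM) were highest. Susd4 (1.499 against 13.8 FPKM), the uptake carrier gene Slco1a1 (21.3 against 113 FPKM) and the steroid dehydrogenase gene Hsd3b5 (24.9 against 102 FPKM) were lowest. Their median log2 ratio was -0.01, which turned positive under all 3 rescalings run. Of 9 measured female-biased genes, 4 passed 2-fold downward and 1 upward on the log2 scale, against 3.22% and 5.49% of all measured rows. The median of these 9 was -0.44. This median stayed below 0 but depended on the settings, at -2.88 over genes with at least 5 FPKM, -0.19 when both libraries were rescaled to the same total and -0.044 with no filter on low values. Cyp2b9 (0.0490 against 18.3 FPKM), Cyp2b10 (2.64 against 29.4 FPKM) and Acot3 (0.302 against 8.56 FPKM) were lowest, and the oestrogen sulfotransferase gene Sult1e1 (1.90 against 0.102 FPKM), Cyp2a4 (10.4 against 6.24 FPKM) and Atp6v0d2 (1.77 against 0.809 FPKM) were highest by log2 ratio.

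Genes of growth hormone signalling, the main known drive of Mup transcription, did not lie on one side. Of 10 measured, 1 passed 2-fold upward and 1 downward on the log2 scale used here, against 5.49% and 3.22% of all measured rows. Without the added 1, Socs3 (ratio 2.43) and Stat5a (ratio 2.0) also reached 2-fold upward, and the downward count stayed at 1. Their median log2 ratio was 0.07, and -0.51 over members with at least 5 FPKM. Ghr, the receptor, was at 231 against 377 FPKM. Of the signal carriers, the kinase gene Jak2 was at 4.01 against 3.501 FPKM, Stat5b at 8.59 against 8.27 FPKM and Stat5a at 4.14 against 2.07 FPKM. Among the induced inhibitors, Socs2 was at 6.33 against 0.949 FPKM, Socs3 at 4.99 against 2.05 FPKM and Cish at 1.81 against 1.63 FPKM. The secreted targets Igf1 (309 against 515 FPKM) and Igfals (20.3 against 47.6 FPKM) were lower in the KO-labelled library, and Bcl6, a male-biased repressor, was at 15.5 against 19.5 FPKM.

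Of 16 hormone receptor and liver transcription factor genes, 2 passed 2-fold downward and 0 upward, against 3.22% and 5.49% of all measured rows. Their median of -0.19 turned positive (0.15 and 0.09) under the 2 larger rescalings. Cebpb (43.8 against 118 FPKM) and the thyroid hormone receptor gene Thrb (4.75 against 7.89 FPKM) were among the lowest, and Zbtb20 (22.3 against 19.3 FPKM), Thra (4.87 against 4.31 FPKM) and Foxa1 (5.36 against 5.18 FPKM) highest. Zhx2, a repressor of fetal liver genes, was at 3.91 against 4.01 FPKM. Of the genes known to be raised when Zhx2 is lost, H19 was at 6.37 against 0.0230 FPKM, Lpl at 29.5 against 4.66 FPKM and Afp at 2.11 against 0.409 FPKM, and Gpc3 was below 1 FPKM in both.

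Other members of the lipocalin family also went both ways. Of 9 measured, 3 passed 2-fold upward and 1 downward in the KO-labelled library, against 5.49% and 3.22% of all measured rows. Their median was -0.28, and 0.07 and 0.01 under the 2 larger rescalings. Lcn2, an iron-sequestering acute phase protein, was at 127 against 7.91 FPKM, Ptgds, the lipocalin-type prostaglandin D synthase, at 15.7 against 0.860 FPKM, and the acute phase gene Orm2 at 86.1 against 25.04 FPKM. The complement subunit gene C8g (133 against 316 FPKM), Apom (118 against 184 FPKM) and the retinol carrier gene Rbp4 (1715 against 2612 FPKM) were lowest.

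Both libraries carried the defining genes of hepatocytes apart from Alb. The 12 hepatocyte markers summed to 39823 against 56830 FPKM, and all 11 measured were below 0 on the log2 scale, with a median of -0.37 (-0.02 when both libraries were rescaled to the same total). Markers of other cells differed beside the Mup genes. The 8 stellate cell and matrix markers summed to 198 against 96.3 FPKM. Of these, 4 were at least 2-fold higher in the KO-labelled library, against 5.49% of all measured rows. The matrix genes Col1a1, Lum and Col3a1 were highest, while Lrat was lower (1.48 against 2.76 FPKM). The 7 bile duct markers summed to 279 against 26.5 FPKM, mostly the secreted protein gene Spp1. Of the 4 measured, 3 were at least 2-fold higher in the KO-labelled library, against 5.49% of all measured rows. These were Spp1, Cldn7 (7.22 against 1.02 FPKM) and Sox9 (4.80 against 1.83 FPKM). The keratin gene Krt19 was lower, at 0.426 against 1.10 FPKM. Markers of macrophages and Kupffer cells, 8 in all, summed to 81.0 against 134 FPKM and the 8 sinusoidal endothelial markers to 36.8 against 83.6 FPKM. Of the macrophage and Kupffer cell markers, 7 lay below 0 on the log2 scale and 1, Cd68, above it (16.8 against 8.67 FPKM). The part of these cell types in the differences of the Mup genes was not tested.

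The deposited values summed to 523254 and 666262, and the scale between the libraries is uncertain by up to 0.35 on the log2 scale under the rescalings run. Low values stepped in whole reads and gave estimated depths of 24100000 (KO) and 19100000 (WT) fragments.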

How the data were processed

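RNA sequencing of 2 liver libraries was analysed. The authors deposited 1 table of FPKM per gene row and library; per the submitters' processing notes, reads were handled with Bowtie 0.12.2 on mm9, while the sources used here do not state the FPKM program, annotation, strandedness or treatment of multiply mapped reads. Rows were matched by symbol, keeping the row with the highest mean for a repeated symbol. Symbols of Mup copies have been reassigned between annotations, so the copy behind a symbol may not be the one of GENCODE M21 used for sequence. The measure was log2((KO + 1)/(WT + 1)) over rows that reached 1 FPKM in either library, with a 2-fold difference counted from 1 or -1 on that scale. A gene of low FPKM can thus differ 2-fold in FPKM and not be counted. No test was possible, as each genotype has 1 library.

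Depth was fitted to values worth 1 to 3 reads of genes with a single transcript of 1000 to 8000 bases, with a length offset of 140 bases: 68.3% of 240 genes (KO) and 75.9% of 249 genes (WT) then lay no more than 0.1 reads from whole. Estimated reads gave 95% exact (Clopper-Pearson) intervals, which cover counting error only. Coding sequences were aligned with Biopython 1.88, and 50-base words were looked up on both strands of all GENCODE M21 transcripts. The code that counts 2-fold differences was checked on simulated data, which says nothing of the spread between mice.

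The members and all gene lists were chosen with earlier results of these data known. Named genes were the members, all Mup rows, the nearest log2 ratios and Srsf2. The growth hormone, sex chromosome and Zhx2 lists and the extremes of other lists were also named by this rule. Flanking genes, Krt19, Spp1 and Zhx2 were added after their values were seen, although Krt19 and Spp1 are also extremes of their list. The values of 1 gene that this rule names are not reported here.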

Additional observations from a re-analysis of the deposited data

How the results depend on the processing

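No paired analysis was possible because each genotype has 1 library, and no library could be left out. Of 42 member log2 ratios under the alternatives, 0 changed sign. A change of pseudocount cannot alter a sign, and the rescalings moved ratios by at most 0.35. The log2 ratio of Mup4, at -0.129, is smaller in size than that, but only through the added 1. Its FPKM ratio was 0.532, from an estimated 2.2 (KO) and 3.3 (WT) reads, so these rescalings could not turn its sign either. The count of 0 therefore says little about stability. With a pseudocount of 3, Mup18 was at -7.22; low genes moved most, Mup5 from -3.004 with a pseudocount of 0.1 to -0.685 with 3. Rescaling both libraries to the same sum gave -2.08 for Mup3, -2.91 for Mup7, 2.05 for Mup20, -0.70 for Mup21, -0.63 for the summed members and -0.685 for the summed Mup rows. Equal sums outside the 50 most abundant rows gave -2.145, -2.975, 1.99, -0.76, -0.695 and -0.75 in the same order. A median ratio of 1 gave -2.36 for Mup3, -3.19 for Mup7, 1.78 for Mup20, -0.91 for the summed members and -0.96 for the summed Mup rows. Members at least 2-fold lower numbered 4 in place of 5 under each rescaling and with a pseudocount of 3, Mup21 or Mup5 dropping out, and 1 member stayed at least 2-fold higher.

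Over all rows, 627 were at least 2-fold higher and 368 lower. The higher count was 1059 with a pseudocount of 0.1, 314 with 3, 1222 with the same sum, 953 with equal sums outside the abundant rows and 366 at 5 FPKM. The lower count was 242 with a pseudocount of 3, and 227 and 226 under those 2 rescalings. List medians changed sign in 10 of 84 cases: growth hormone signalling at 5 FPKM (-0.51), and, under the same-sum and equal-sum rescalings, receptors and transcription factors (0.15 and 0.087), sex chromosome transcripts (0.14 and 0.076), other lipocalins (0.073 and 0.011) and male-biased genes (0.335 and 0.27, and 0.061 with a median ratio of 1). Words of 36 and 75 bases, chosen after seeing the data, put the share of its own sequence at 8.05% and 12.5% for Mup18, 39.6% and 56.4% for Mup20 and 74.0% and 93.2% for Mup3.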
